A study of Homo sapiens with 6 samples.

Results

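Toll-like receptors are the sensors with which myeloid cells detect molecules of bacteria and viruses, and the 10 genes described here encode 7 of these receptors and 3 proteins that they need. The genes are TLR1, TLR2, TLR6 and TLR4, which act at the cell surface, the lipopolysaccharide co-receptors CD14 and LY96, the endosomal receptors TLR7, TLR8 and TLR9, and UNC93B1, the chaperone of the endosomal receptors. They were chosen by gene symbol, and all 10 of 10 were among the 13002 genes of both deposited tables. RNA was sequenced from OCI-AML2 cells, an established line of human acute myeloid leukaemia that the labels describe as engineered and stem cell-like. In all groups a hairpin was delivered by lentivirus and the cells were selected in puromycin (2.0 µg/mL) for 3 days. The groups were TAZ shRNA2, TAZ shRNA1 and a control hairpin, called scramble in the labels and GFP in the table columns. Each had 2 libraries, lettered A and B, so there were 6 libraries of 1 cell line. The study asked what changes in gene expression when TAZ is lowered, where TAZ (gene ID 6901) is the gene of tafazzin, an enzyme of mitochondria that remodels cardiolipin. Whether A and B were grown as separate cultures is not in the labels, so the p-values below reflect how far 2 libraries of a group differ, and that spread may be technical.

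A Toll-like receptor binds its ligand as a dimer, and the receptor domains inside the cell then recruit an adaptor. The adaptor is MYD88, which acts through IRAK and TRAF6, or TICAM1. Further down, NF-kappaB, AP-1 and interferon regulatory factors are activated. TLR2 pairs with TLR1 to bind triacylated lipoproteins and with TLR6 to bind diacylated ones. TLR4 binds lipopolysaccharide only together with MD-2, the product of LY96, and CD14 hands lipopolysaccharide to that pair. TLR7 and TLR8 sense single-stranded RNA and TLR9 senses unmethylated CpG DNA, all in endosomes, which they reach only when UNC93B1 escorts them out of the endoplasmic reticulum. Monocytes are known for high TLR2, TLR4, TLR8 and CD14, whereas TLR7 and TLR9 are best known from plasmacytoid dendritic cells and B cells.

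The promoters of 4 members are shown because TLR8, TLR2 and TLR4 had higher transcript levels with both hairpins and CD14 with shRNA2. Each line is the 250 bases before the annotated start, read 5′ to 3′ on the gene's strand from RefSeq (GRCh38.p14), and capitals mark AGGAAG, a purine-rich core bound by ETS-family factors, or its reverse complement CTTCCT. TLR8 (chrX:12906370-12906619, plus strand) has 1 match, which begins 12 bases before the start, and TLR2 (chr4:153684030-153684279, plus strand) has 1 that begins 16 bases before it. TLR4 (chr9:117704153-117704402, plus strand) has 4 and CD14 (chr5:140633176-140633425, minus strand) has 3.
TLR8: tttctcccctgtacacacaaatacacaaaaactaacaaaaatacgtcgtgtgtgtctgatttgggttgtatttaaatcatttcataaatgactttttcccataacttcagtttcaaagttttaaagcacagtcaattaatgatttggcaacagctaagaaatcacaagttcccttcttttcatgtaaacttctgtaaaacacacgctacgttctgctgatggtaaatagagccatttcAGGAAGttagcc
TLR2: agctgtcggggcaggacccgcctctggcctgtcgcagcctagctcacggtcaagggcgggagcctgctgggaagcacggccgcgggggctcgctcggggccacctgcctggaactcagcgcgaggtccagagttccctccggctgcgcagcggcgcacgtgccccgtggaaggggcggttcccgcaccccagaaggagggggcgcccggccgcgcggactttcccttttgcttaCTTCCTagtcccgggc
TLR4: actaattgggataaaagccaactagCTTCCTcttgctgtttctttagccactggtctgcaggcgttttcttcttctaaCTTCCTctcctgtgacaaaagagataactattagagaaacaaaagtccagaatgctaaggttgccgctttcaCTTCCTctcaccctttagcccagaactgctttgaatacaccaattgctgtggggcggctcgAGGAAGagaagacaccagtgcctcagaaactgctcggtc
CD14: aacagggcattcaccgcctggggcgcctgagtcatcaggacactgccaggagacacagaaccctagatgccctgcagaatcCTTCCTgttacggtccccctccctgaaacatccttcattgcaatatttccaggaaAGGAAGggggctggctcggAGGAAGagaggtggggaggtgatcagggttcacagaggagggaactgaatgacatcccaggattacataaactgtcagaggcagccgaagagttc
Of all 35116 promoters of this length in the RefSeq table, 28.7% held at least 1 match to AGGAAG on either strand and 5.77% held 2 or more. The TLR6 promoter held 1 match and the TLR9 promoter 2. The AP-1 motif TGANTCA matched once in CD14 and once in TLR9, and in 6.57% of all promoters. Promoters of 6 of the 10 members were in the table, and TLR1, TLR7, LY96 and UNC93B1 are named only. No match overlapped another. The motifs were chosen with the sequences in view and describe letters, not binding.

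Depth was similar in all libraries, from 18820180 to 20980470 reads in listed genes. TAZ itself stood at 1.47 and 2.13 RPKM (reads scaled by gene length and library depth) with shRNA2, against 11.3 and 11.9 RPKM in the control, and the shRNA1 libraries had 4.02 and 4.10 RPKM. The 7 of 8 myeloid markers analysed had a summed level of 3908 to 4697 RPKM with shRNA2, 5111 to 5681 RPKM with shRNA1 and 959 to 1133 RPKM in the control, most of it LYZ. This sum was higher with both hairpins than in the control, but it need not speak for each marker. SPI1, 1 of the 7, did not pass the test used below with either hairpin. Its log2 fold change was 0.14 with shRNA2 and 0.06 with shRNA1. Whether the sum relates to the receptor levels below was not tested. In a bulk sample, fewer cells of a type and less RNA per cell cannot be told apart. Of 4 T cell markers only CD3D was analysed, at 0.0694 to 0.269 RPKM with shRNA2, 0 to 0.131 RPKM with shRNA1 and 0.732 to 0.981 RPKM in the control. The summed level of 3 of 4 B cell markers was 1.19 to 1.37 RPKM with shRNA2, 4.36 to 4.91 RPKM with shRNA1 and 1.83 to 3.42 RPKM in the control. That of 2 of 4 NK cell markers, mostly NKG7, was 43.7 to 50.1 RPKM with shRNA2, 42.2 to 46.0 RPKM with shRNA1 and 34.2 to 48.7 RPKM in the control. Of the 4 erythroid markers and the 4 of fibroblasts and epithelium none was among the genes analysed here.

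**Figure D1:**
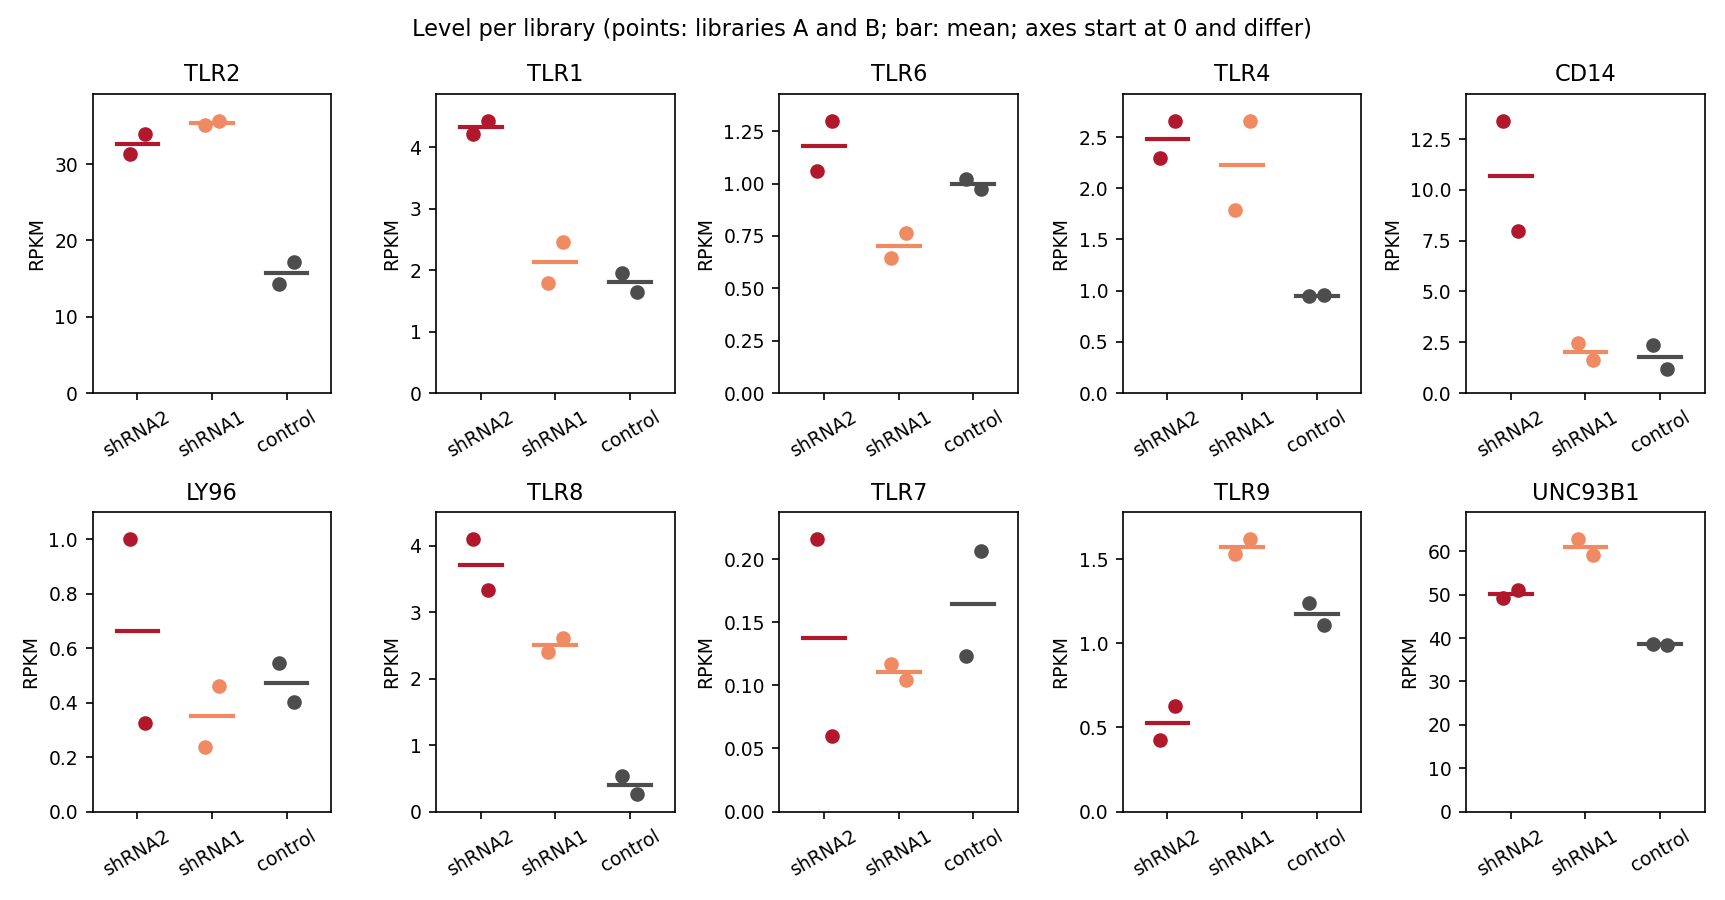
Level of each of the 10 genes in RPKM (vertical axes, which start at 0 and differ between panels) for shRNA2, shRNA1 and control; points are libraries A and B and bars their mean. TLR2, TLR4, TLR8 and UNC93B1 were higher in all 4 hairpin libraries than in both control libraries, TLR1 and CD14 were higher in the shRNA2 libraries than in the other 4, and TLR9 was lowest in the shRNA2 libraries.

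On the RPKM scale, which allows levels of different genes to be compared, UNC93B1 and TLR2 were the most abundant members in every group, and TLR7 the least abundant. UNC93B1 averaged 50.2 ± 1.32 RPKM with shRNA2, 60.9 ± 2.62 RPKM with shRNA1 and 38.6 ± 0.228 RPKM in the control (SD, n = 2 each). With shRNA2 the order below TLR2 was CD14, TLR1, TLR8, TLR4, TLR6, LY96, TLR9 and TLR7, and only LY96 and TLR9 overlapped as neighbours. With shRNA1 the order below TLR2 was TLR8, TLR4, TLR1, CD14, TLR9, TLR6, LY96 and TLR7, and each neighbouring pair from TLR8 to TLR9 overlapped. In the control the order below TLR2 was TLR1, CD14, TLR9, TLR6, TLR4, LY96, TLR8 and TLR7, with overlap between TLR1 and CD14, between CD14 and TLR9, and between LY96 and TLR8. TLR8 was the third of 10 in rank with shRNA1, the fifth with shRNA2 and the ninth in the control.

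With shRNA2 compared with the control, transcripts of the surface receptors TLR1, TLR2 and TLR4, of the co-receptor CD14 and of 1 endosomal receptor were higher. Of the 10 members 7 reached a mean of 1 RPKM in these 4 libraries and were tested with limma, and 5 of them rose (TLR8, CD14, TLR1, TLR2 and TLR4), where 15.7% of all 10659 genes tested were called, 8.12% higher and 7.61% lower. On the scale of RPKM + 0.5 used in all limma fits, the fitted fold was 4.71 for TLR8 and 4.99 for CD14, and TLR1, TLR2 and TLR4 rose about 2-fold. The added 0.5 lowers the fold of genes with a low level in the control, TLR8 and TLR4 among them. limma-voom on recovered reads, which adds no RPKM, gave 10.1-fold for TLR8 and 6.5-fold for CD14. By the same method TLR4 rose 2.69-fold, TLR1 2.5-fold and TLR2 2.16-fold. None fell, and TLR6 and UNC93B1 did not pass. The median log2 fold change of the 7 was 1.03, beside -0.005 over all genes tested. TLR4, TLR6 and TLR8 had a mean under 1 RPKM in the control and passed the minimum only through their hairpin libraries. The count and the median over the 7 therefore lean towards increases. With no minimum all 10 were tested: the same 5 rose, TLR9 fell and 4 did not pass, where 12.3% of all 13002 genes were called (6.44% rose and 5.91% fell).

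TLR2, the common subunit of the lipoprotein receptors, had 31.3 and 33.9 RPKM in the shRNA2 libraries, 35.1 and 35.7 RPKM in the shRNA1 libraries, and 14.3 and 17.2 RPKM in the control libraries, from 870 to 2560 reads a library. All 4 hairpin libraries were well above both control libraries. Its log2 fold change with shRNA2 was 1.03 (SE 0.15, limma adjusted p = 0.00714), and it ranged from 0.90 to 1.16 as each library was left out. TLR1, the partner of TLR2 for triacylated lipoproteins, had 4.22 and 4.43 RPKM in the shRNA2 libraries, 1.79 and 2.46 RPKM in the shRNA1 libraries, and 1.96 and 1.64 RPKM in the control libraries. The shRNA2 libraries were the highest, while the shRNA1 and control libraries overlapped. TLR1 rose with shRNA2 by 1.07 on the log2 scale (SE 0.17, limma adjusted p = 0.00957). TLR6, the other partner of TLR2, had 1.06 and 1.30 RPKM in the shRNA2 libraries, 0.643 and 0.765 RPKM in the shRNA1 libraries, and 1.02 and 0.972 RPKM in the control libraries. Its log2 fold change with shRNA2 was 0.17 (95% interval -0.32 to 0.65, limma adjusted p = 0.611). TLR1 and TLR6 are neighbours on chromosome 4, and 8.5% of the 50-base stretches of TLR1 transcripts in GENCODE 29 also occur in TLR6, so a small part of their reads may be shared. The ratio of TLR1 to TLR6, a pair chosen after the values were seen, was 3.99 and 3.41 with shRNA2, 2.78 and 3.22 with shRNA1, and 1.93 and 1.69 in the control.

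TLR4, the lipopolysaccharide receptor, had 2.30 and 2.66 RPKM in the shRNA2 libraries, 1.79 and 2.66 RPKM in the shRNA1 libraries, and 0.948 and 0.956 RPKM in the control libraries, from 98 to 324 reads a library. The control libraries lay close together and below all hairpin libraries. The log2 fold change with shRNA2 was 1.03 (SE 0.19, limma adjusted p = 0.0146). CD14, which loads lipopolysaccharide onto TLR4, had 13.4 and 7.97 RPKM in the shRNA2 libraries, 2.44 and 1.61 RPKM in the shRNA1 libraries, and 2.34 and 1.17 RPKM in the control libraries. Library A was the higher one in each group, and even the lower shRNA2 library exceeded the other 4 libraries several-fold. CD14 rose with shRNA2 by 2.32 on the log2 scale (SE 0.31, limma adjusted p = 0.00568), and by 1.93 to 2.70 with each library left out. LY96, whose product MD-2 completes the complex, rested on 12 and 4 reads with shRNA2, 3 and 6 reads with shRNA1, and 6 and 5 reads in the control. Its level of 0.237 to 1.0 RPKM over the 6 libraries was under the minimum for a test, and a difference was not detectable at this depth (with no minimum, log2 fold change 0.20 with shRNA2, 95% interval -0.46 to 0.86). The added 0.5 RPKM narrows that interval. limma-voom on recovered reads with no minimum gave 0.34 with shRNA2 (95% interval -1.16 to 1.85).

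TLR8, a receptor for single-stranded RNA, had 4.10 and 3.33 RPKM in the shRNA2 libraries, 2.40 and 2.61 RPKM in the shRNA1 libraries, and 0.530 and 0.269 RPKM in the control libraries. The 3 groups did not overlap, and the shRNA2 libraries were the highest. These levels came from 336 and 282 reads with shRNA2, 209 and 232 reads with shRNA1, and 40 and 23 reads in the control. Its log2 fold change with shRNA2 was 2.24 (SE 0.23, limma adjusted p = 0.00267). Adding 0.5 to each RPKM before the logarithm understates the change of a gene this low in the control, and limma-voom on recovered reads gave a log2 fold change of 3.33 (SE 0.34). TLR7, its neighbour on chromosome X and the other receptor for single-stranded RNA, had 21 and 6 reads with shRNA2, 12 and 11 reads with shRNA1, and 11 and 21 reads in the control. Its levels of 0.0598 to 0.216 RPKM overlapped in all groups and were under the minimum for a test.

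TLR9, the receptor for CpG DNA, had 0.425 and 0.630 RPKM in the shRNA2 libraries, 1.53 and 1.62 RPKM in the shRNA1 libraries, and 1.24 and 1.11 RPKM in the control libraries. The groups did not overlap, and the shRNA2 libraries were the lowest. Its mean over the shRNA2 and control libraries was under the minimum for a test. With no minimum the log2 fold change was -0.71 (SE 0.17, limma adjusted p = 0.0423), and limma-voom on recovered reads with no minimum gave -1.12 (SE 0.35, adjusted p = 0.047). In GENCODE 29, 84.9% of the 50-base stretches of TLR9 transcripts also belong to the overlapping gene AC097637.1, so reads of both cannot be told apart. UNC93B1, the escort of these receptors, had 49.3 and 51.2 RPKM in the shRNA2 libraries, 62.8 and 59.1 RPKM in the shRNA1 libraries, and 38.7 and 38.4 RPKM in the control libraries. Although the groups did not overlap, its log2 fold change with shRNA2 of 0.38 (SE 0.14) did not pass (limma adjusted p = 0.101). It passed with all 6 libraries in the fit (adjusted p = 0.0434). Pseudogenes of the UNC93B family share 19.4% of its 50-base stretches, which may add or remove reads.

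The authors' deposited table for shRNA2 calls 6 members higher and 1 lower at an adjusted p under 0.05, where it calls 38.8% of all genes, 19.9% higher and 18.9% lower. In the authors' deposited table TLR8 has a log2 fold change of 3.24, CD14 of 2.63, TLR4 of 1.39, TLR1 of 1.27, TLR2 of 1.06, UNC93B1 of 0.39 and TLR9 of -1.15.

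With shRNA1 compared with the control, TLR2, TLR4 and TLR8 were again higher, and so was UNC93B1, while TLR1 and CD14 did not pass. Of 7 members tested 4 rose (TLR2, TLR8, UNC93B1 and TLR4) and none fell, where 18.6% of all 10613 genes tested were called, 9.99% higher and 8.58% lower. TLR2 rose 2.22-fold, TLR8 3.37-fold, TLR4 1.85-fold and UNC93B1 1.57-fold in the fit. By limma-voom on recovered reads TLR8 rose 6.69-fold, TLR4 2.33-fold and TLR2 2.3-fold. TLR9 did not pass either. The median log2 fold change of the 7 was 0.65, beside -0.000 over all genes tested, and TLR4 and TLR8 again passed the minimum only through hairpin libraries. With no minimum the same 4 of 10 members rose, none fell and 6 did not pass, where 15.2% of all 13002 genes were called (8.3% rose and 6.92% fell). Both comparisons share the 2 control libraries, so their results are not independent.

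TLR2 rose by 1.15 on the log2 scale with shRNA1 (SE 0.13, limma adjusted p = 0.00346), and by 1.02 to 1.28 with each library left out. TLR8 rose by 1.75 (SE 0.20, limma adjusted p = 0.00354), and limma-voom on recovered reads gave 2.74 (SE 0.31). TLR4 rose by 0.89 (SE 0.20, limma adjusted p = 0.0255). The 2 shRNA1 libraries stood apart for TLR4, and without shRNA1 B the log2 fold change was 0.66 and the call was lost (adjusted p = 0.216). UNC93B1 rose by 0.65 (SE 0.11, limma adjusted p = 0.0112), and its call was lost without shRNA1 A (adjusted p = 0.0835) or without shRNA1 B (adjusted p = 0.0635). All 4 genes had both shRNA1 libraries above both control libraries.

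TLR1 had a log2 fold change of 0.18 with shRNA1 (95% interval -0.26 to 0.62, limma adjusted p = 0.521). CD14 had one of 0.20 (95% interval -0.47 to 0.86, adjusted p = 0.649), and it passed without control A (0.58, adjusted p = 0.0417), where control A was the higher control library. TLR9 had one of 0.31 (95% interval -0.08 to 0.69, adjusted p = 0.215), with both shRNA1 libraries above both control libraries. For TLR6, which was under the minimum here, both shRNA1 libraries were below both control libraries, and with no minimum its log2 fold change was -0.31 (95% interval -0.65 to 0.02, limma adjusted p = 0.172). In the same fit LY96 had a log2 fold change of -0.21 (95% interval -0.61 to 0.20) and TLR7 one of -0.12 (95% interval -0.42 to 0.17). At such low levels the added 0.5 RPKM narrows these intervals. By limma-voom on recovered reads with no minimum, LY96 had -0.43 (95% interval -1.83 to 0.98) and TLR7 -0.50 (95% interval -1.59 to 0.58). The authors' deposited table for shRNA1 calls 4 members higher and none lower, where it calls 35.9% of all genes, 18.8% higher and 17.1% lower. In the authors' deposited table TLR8 has a log2 fold change of 2.68, TLR4 of 1.20, TLR2 of 1.17 and UNC93B1 of 0.66.

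**Figure D2:**
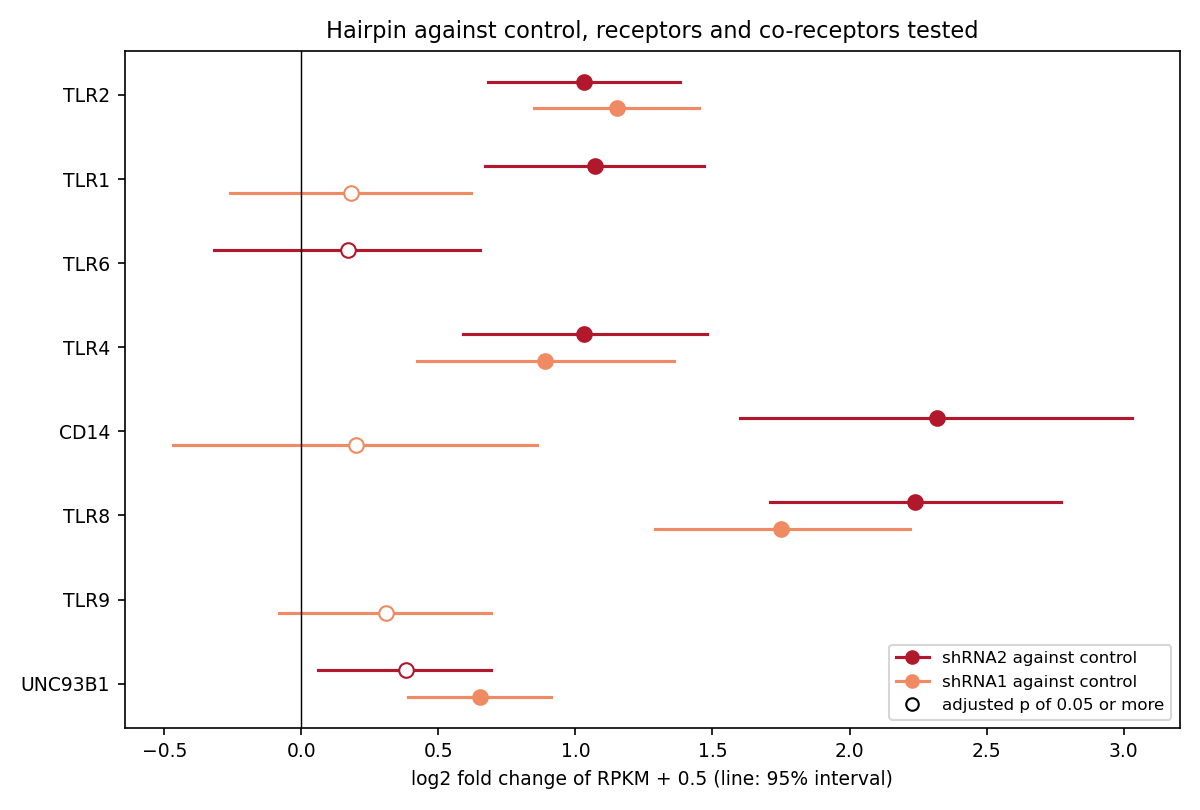
Log2 fold change (horizontal axis, on RPKM + 0.5) of each member tested in either comparison, with its 95% interval as a line; dark red is shRNA2 and orange shRNA1 against the control, and open circles did not pass. TLR2 was close with both hairpins (1.03 with shRNA2, 1.15 with shRNA1), whereas CD14 (2.32 with shRNA2, 0.20 with shRNA1) and TLR1 (1.07 with shRNA2, 0.18 with shRNA1) were not.

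The hairpins were also compared with each other, to ask where shRNA2 and shRNA1, of which shRNA2 left less TAZ transcript, differed. CD14 and TLR1 were higher with shRNA2 than with shRNA1, and TLR9 was lower. These were 3 of 7 members tested in a limma fit of all 6 libraries, in which 10.9% of all 10660 genes were called, 4.78% higher and 6.1% lower with shRNA2. TLR9 had a mean under 1 RPKM with shRNA2 and passed the minimum only through the other libraries. With no minimum CD14, TLR1 and TLR9 were called of all 10 members tested, where 9.15% of all 13002 genes were called (4.07% higher and 5.08% lower). CD14 was 4.35-fold higher with shRNA2 than with shRNA1 (log2 2.12, SE 0.31, adjusted p = 0.00528), and its call was lost without shRNA1 B (log2 1.88, adjusted p = 0.0613). TLR1 was 1.86-fold higher (log2 0.89, SE 0.17, adjusted p = 0.0162), and its call was lost without any 1 of the 4 hairpin libraries, with adjusted p between 0.0605 and 0.152. TLR9 was lower, with a log2 value of -1.02 (SE 0.19, adjusted p = 0.0123), and its call was lost without shRNA2 A (adjusted p = 0.0647), shRNA1 A (0.104) or shRNA1 B (0.128). In each of these fits the sign stayed, from 1.77 to 2.48 for CD14, from 0.71 to 1.08 for TLR1 and from -1.16 to -0.87 for TLR9.

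The other 4 members tested did not pass between the hairpins. TLR2 differed by a log2 fold change of -0.12 (95% interval -0.41 to 0.18) and TLR4 by 0.15 (-0.30 to 0.59). For TLR2 both shRNA2 libraries were slightly below both shRNA1 libraries, and for TLR4 the libraries of the hairpins overlapped. TLR8 differed by 0.48 (95% interval 0.04 to 0.93, adjusted p = 0.16), and UNC93B1 by -0.28 (95% interval -0.54 to -0.02, adjusted p = 0.167). For both of these genes the hairpin libraries did not overlap and the unadjusted interval left out 0, but neither passed over all genes. The ratio of TLR8 to TLR9, again chosen after the values were seen, was 9.64 and 5.28 with shRNA2, 1.57 and 1.61 with shRNA1, and 0.427 and 0.243 in the control. That of CD14 to TLR4 was 5.83 and 3.00 with shRNA2, 1.37 and 0.606 with shRNA1, and 2.47 and 1.22 in the control.

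**Figure D3:**
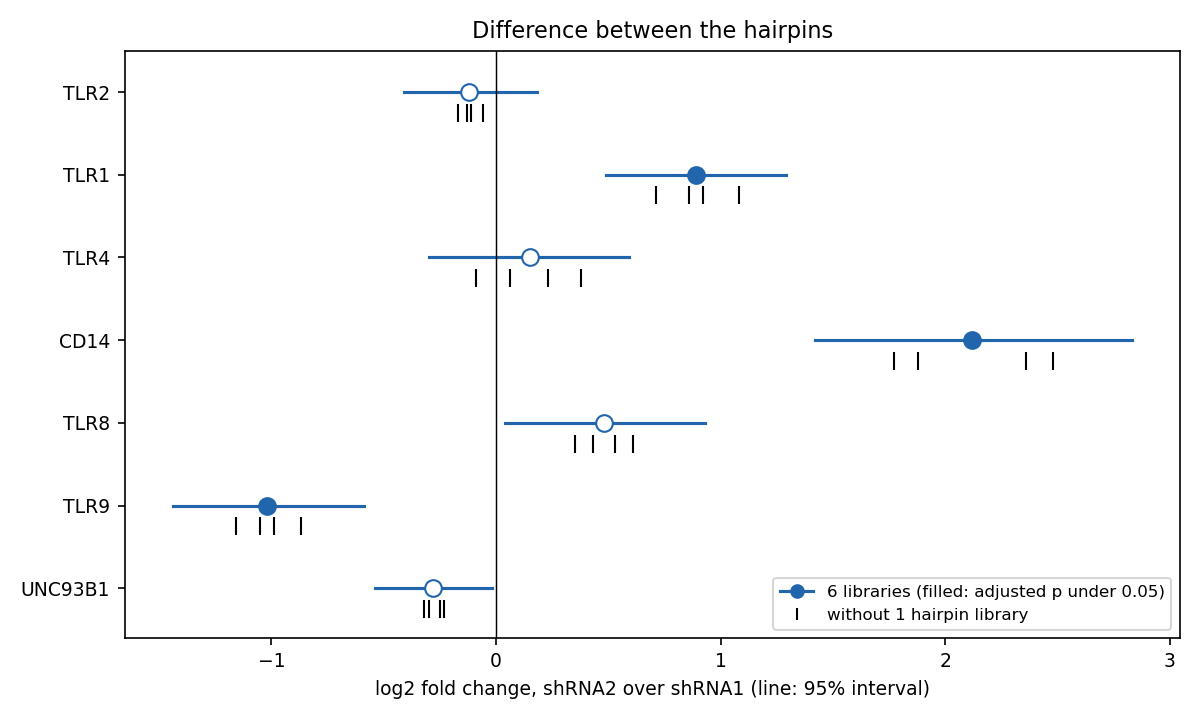
Log2 fold change of shRNA2 over shRNA1 (horizontal axis) for the 7 members tested, with 95% intervals; filled circles passed, and the short vertical ticks under each line are the values without 1 hairpin library. CD14 (2.12) and TLR1 (0.89) were higher and TLR9 (-1.02) was lower with shRNA2, and no tick of these 3 crosses 0, while the ticks of TLR4 run from -0.09 to 0.38.

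Across the 6 libraries the members varied along partly different lines. As a description over 6 libraries that share their groups, log2 levels of TLR2 correlated with those of TLR4 at r = 0.93, of TLR8 at r = 0.91 and of UNC93B1 at r = 0.93. TLR1 correlated with CD14 at r = 0.91, and TLR9 with CD14 at r = -0.89 and with TLR1 at r = -0.82. TLR2 and CD14 correlated at r = 0.42, and UNC93B1 correlated with TLR1 at r = 0.22 and with CD14 at r = 0.16. The members did not form separate sets, however. TLR8 correlated with TLR1 at r = 0.76 and with CD14 at r = 0.72, and TLR4 with TLR1 at r = 0.73 and with CD14 at r = 0.55. Among 10660 genes, the likest to TLR8 over the 6 libraries were SCPEP1, PQLC3 and GLIPR1 (r = 0.996 to 0.997), those to TLR2 included TACC1 and ENTPD7 (r = 0.999), and those to CD14 were FCER2, ANXA5 and METTL9 (r = 0.996 to 0.999). GLIPR1, for example, had 7.27 and 6.05 RPKM in the shRNA2 libraries, 3.87 and 4.71 RPKM in the shRNA1 libraries, and 1.24 and 0.947 RPKM in the control libraries. FCER2, a low-affinity IgE receptor, had 5.91 and 3.90 RPKM in the shRNA2 libraries, 1.59 and 1.23 RPKM in the shRNA1 libraries, and 1.73 and 1.01 RPKM in the control libraries.

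Of the other human Toll-like receptors, the flagellin receptor TLR5 was listed at 0.301 and 0.128 RPKM with shRNA2, 0.614 and 0.489 RPKM with shRNA1, and 0.210 and 0.127 RPKM in the control, under the minimum for a test, and TLR3 and TLR10 were not analysed here. Genes that handle ligands or receptors rose in part with both hairpins. Of 18 such genes tested 7 rose and none fell with shRNA2 (median log2 0.39), and 6 rose and none fell with shRNA1 (median log2 0.13). The share that rose was 38.9% with shRNA2, beside 8.12% of all genes tested, and 33.3% with shRNA1, beside 9.99%. This list and those below were chosen with earlier results of these data known, so such shares only describe the lists. CD36 had a mean under 1 RPKM in the control and passed the minimum only through its hairpin libraries. CD36, a scavenger receptor that delivers lipids to TLR2 and TLR6, averaged 6.47 ± 0.575 RPKM with shRNA2, 2.95 ± 0.220 RPKM with shRNA1 and 0.918 ± 0.178 RPKM in the control (SD, n = 2 each). Its log2 fold change was 2.30 with shRNA2 (SE 0.18, limma adjusted p = 0.00245) and 1.29 with shRNA1 (SE 0.17, adjusted p = 0.0055). GRN, the progranulin gene, averaged 268 ± 39.9 RPKM with shRNA2, 143 ± 44.0 RPKM with shRNA1 and 63.6 ± 16.2 RPKM in the control, and rose with both (adjusted p = 0.00268 with shRNA2 and 0.0215 with shRNA1). CTSS, a protease that cleaves endosomal receptors, rose by 0.63 with shRNA2 (adjusted p = 0.027) and by 0.79 with shRNA1 (adjusted p = 0.0141) on the log2 scale. AP3B1, a subunit of the AP-3 sorting complex, rose by 0.64 with shRNA2 (adjusted p = 0.0332) and by 0.67 with shRNA1 (adjusted p = 0.017). With shRNA2 the CTSS call was lost without shRNA2 A, shRNA2 B or control B (adjusted p 0.0654 to 0.0776) and the AP3B1 call without shRNA2 B (0.136) or control A (0.0944). With shRNA1 the CTSS call was lost without shRNA1 B (0.107) and the AP3B1 call without shRNA1 A (0.0688) or shRNA1 B (0.101).

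Most signalling genes below the receptors did not pass. Of 6 adaptors tested 1 rose with shRNA2 and 3 with shRNA1, with medians of 0.38 with shRNA2 and 0.43 with shRNA1, where 8.12% of all genes rose with shRNA2 and 9.99% with shRNA1, and 1 of 6 is near that share for so short a list. PIK3AP1, which links receptors to PI3 kinase, averaged 32.5 ± 2.36 RPKM with shRNA2, 38.6 ± 2.82 RPKM with shRNA1 and 21.7 ± 0.757 RPKM in the control, and rose with both (limma adjusted p = 0.0344 with shRNA2 and 0.00704 with shRNA1). MYD88, the adaptor shared by the receptors named here, averaged 15.4 ± 0.287 RPKM with shRNA2, 20.8 ± 3.10 RPKM with shRNA1 and 13.5 ± 0.0433 RPKM in the control. It passed with shRNA1 (log2 0.60, limma adjusted p = 0.0274), a call lost without shRNA1 A (0.219) or shRNA1 B (0.0574). CXorf21, known as TASL, which links TLR7, TLR8 and TLR9 to IRF5, averaged 93.4 ± 7.51 RPKM with shRNA2, 146 ± 13.0 RPKM with shRNA1 and 67.1 ± 25.4 RPKM in the control, and rose with shRNA1 (adjusted p = 0.0198). Of 23 kinases and ubiquitin ligases 3 rose with each hairpin and none fell, with medians of 0.22 with shRNA2 and 0.18 with shRNA1. This is near the share of all genes that rose (8.12% with shRNA2 and 9.99% with shRNA1), so the values below describe single genes and not the list. RIPK1 rose by 0.92 with shRNA2 (adjusted p = 0.00894) and by 0.80 with shRNA1 (adjusted p = 0.00994), and IRAK4, the first kinase after MYD88, by 0.60 with shRNA2 (adjusted p = 0.0336). MAP3K8 also rose with shRNA2 (0.94, adjusted p = 0.0376), and SYK (0.75, adjusted p = 0.00723) and TAB1 (0.49, adjusted p = 0.0382) with shRNA1, where MAP3K8 and TAB1 were named after their values were seen. With shRNA2 the calls of PIK3AP1 and IRAK4 were lost without shRNA2 A, shRNA2 B or control A (adjusted p 0.0549 to 0.165), and that of MAP3K8 without shRNA2 A (0.086) or control B (0.0548). With shRNA1 the calls of RIPK1 and TAB1 were lost without either shRNA1 library (0.0587 to 0.363), and those of PIK3AP1 (0.0503) and SYK (0.053) without shRNA1 B.

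Of 14 inhibitors of the pathway 3 rose and 2 fell with shRNA2 (median 0.26), and 4 rose and 2 fell with shRNA1 (median 0.31). Some of them act below the receptors, ATF3 among them. Over all genes tested 8.12% rose and 7.61% fell with shRNA2, and 9.99% rose and 8.58% fell with shRNA1. LILRB4, an inhibitory receptor, averaged 10.2 ± 0.724 RPKM with shRNA2, 8.36 ± 0.211 RPKM with shRNA1 and 3.57 ± 0.335 RPKM in the control, and CD180, a TLR4-like protein that limits TLR4 in dendritic cells and macrophages, 13.0 ± 0.289 RPKM with shRNA2, 11.6 ± 0.764 RPKM with shRNA1 and 5.85 ± 1.49 RPKM in the control. Both rose with both hairpins, as did IRAK3, and LY86, the partner of CD180, rose with shRNA1. TNFAIP3, the deubiquitinase A20 that NF-kappaB induces, fell to 2.96 ± 0.558 RPKM with shRNA2 and 5.95 ± 0.754 RPKM with shRNA1, against 11.3 ± 0.586 RPKM in the control. ATF3, a repressor of cytokine genes, fell to 4.22 ± 0.803 RPKM with shRNA2 and 2.88 ± 0.166 RPKM with shRNA1, against 12.0 ± 2.27 RPKM in the control. Of 14 transcription factors 3 rose and 1 fell with shRNA2 (median 0.12), and 3 rose and 2 fell with shRNA1 (median 0.08). The share that fell with shRNA2, 7.14%, was near the 7.61% over all genes, and the share that rose was 21.4% with each hairpin, beside 8.12% over all genes with shRNA2 and 9.99% with shRNA1. IRF5, the factor used by TLR7, TLR8 and TLR9, averaged 7.56 ± 1.30 RPKM with shRNA2, 8.28 ± 0.989 RPKM with shRNA1 and 3.14 ± 0.479 RPKM in the control, and rose with both (limma adjusted p = 0.00957 with shRNA2 and 0.00508 with shRNA1). IRF7 (log2 1.42) and FOS (0.96) rose with shRNA2, and IRF8 (0.99) and RELA (0.68) rose with shRNA1. CEBPB fell with shRNA1 (-0.83), and JUN fell with shRNA2 (-1.49) and with shRNA1 (-1.82). IRAK3, LY86, IRF7, IRF8 and CEBPB were named after their values were seen. The JUN libraries of the control stood at 44.4 and 15.9 RPKM, and robust empirical Bayes ended its call with both hairpins (adjusted p = 0.149 with shRNA2 and 0.137 with shRNA1). With no minimum its call with shRNA2 was also lost (adjusted p = 0.0595). Its log2 fold change was -0.76 with shRNA2 and -1.09 with shRNA1 without control A, and -2.22 with shRNA2 and -2.55 with shRNA1 without control B. With 1 library left out, IRAK3 lost its call with shRNA2 (without shRNA2 B, 0.226, or control A, 0.0593) and with shRNA1 (without shRNA1 A, 0.0807, or shRNA1 B, 0.169). TNFAIP3 with shRNA1 lost its call without shRNA1 A (0.0555), RELA without shRNA1 A (0.0569) or shRNA1 B (0.177), and CEBPB without shRNA1 B (0.125).

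Cytokine and chemokine genes that these receptors can induce had negative medians with both hairpins. Of 8 tested 1 rose and 2 fell with shRNA2 (median -0.88), and none rose and 4 fell with shRNA1 (median -1.55), where 7.61% of all genes fell with shRNA2 and 8.58% with shRNA1. TNF had 19.9 and 18.9 RPKM in the shRNA2 libraries, 8.74 and 8.26 RPKM in the shRNA1 libraries, and 32.5 and 36.8 RPKM in the control libraries. CCL5 had 91.1 and 61.6 RPKM in the shRNA2 libraries, 62.7 and 46.4 RPKM in the shRNA1 libraries, and 207 and 142 RPKM in the control libraries. Both fell with both hairpins, and CXCL8 and CCL3, the second named after its values were seen, fell with shRNA1. With shRNA2 the log2 fold change of CXCL8 was -0.93 and did not pass (limma adjusted p = 0.0738). Some other settings called it, among them limma with all 6 libraries in the fit (adjusted p = 0.0382) and limma-voom on recovered reads (0.0254), and the rest did not. The fall of CCL3 rested on 19.8 ± 16.1 RPKM in the control (SD, n = 2) and was lost with robust empirical Bayes (adjusted p = 0.142). Its log2 fold change of -2.26 was -1.35 without control A and -3.18 without control B. CCL2, a monocyte attractant, was the exception, with 39.9 and 24.8 RPKM in the shRNA2 libraries, 5.65 and 4.25 RPKM in the shRNA1 libraries, and 9.95 and 6.67 RPKM in the control libraries. It rose with shRNA2 by 1.89 on the log2 scale (SE 0.26, limma adjusted p = 0.00586). Medians over all genes tested were within 0.005 of 0 for these comparisons.

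**Figure D4:**
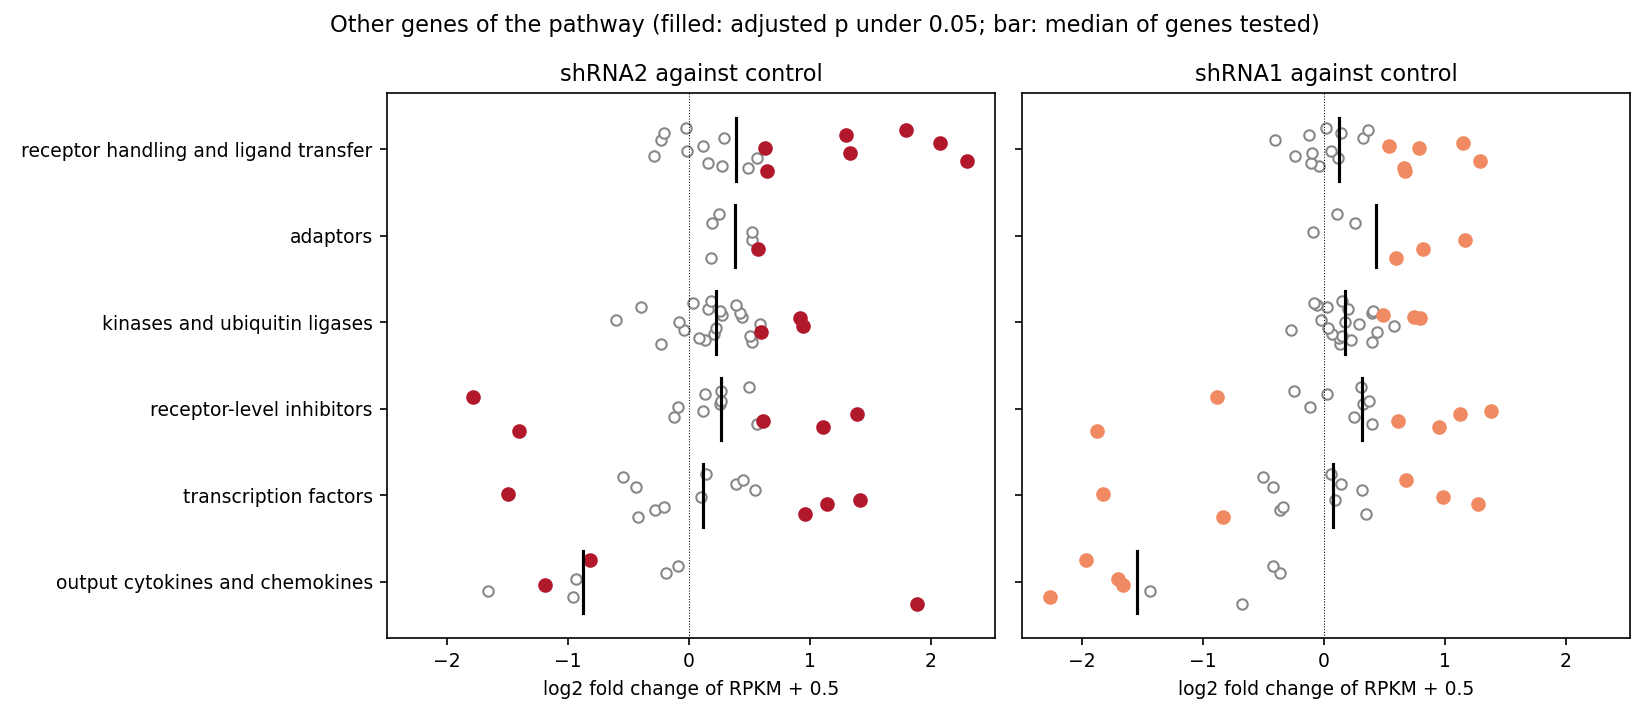
Log2 fold change (horizontal axis, on RPKM + 0.5) of the other genes of the pathway, grouped by role, with shRNA2 (left) and shRNA1 (right) against the control; each circle is a gene, filled circles passed, and bars are medians of the genes tested. Medians ran from 0.39 for receptor handling to -0.88 for outputs with shRNA2, and from 0.43 for adaptors to -1.55 for outputs with shRNA1. The group labelled receptor-level inhibitors also holds genes that act below the receptors, such as ATF3.

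Between the hairpins, 5 of 18 handling genes were higher with shRNA2 (CTSB, ITGB2, SLC15A3, CD36 and GRN) and none lower, where 4.78% of all genes were higher and 6.1% lower. The GRN call was lost with no minimum (adjusted p = 0.0552) and with robust empirical Bayes (0.0533). SLC15A3, an endolysosomal transporter of histidine and muropeptides, averaged 5.11 ± 0.238 RPKM with shRNA2 and 1.59 ± 0.0900 RPKM with shRNA1 (SD, n = 2 each; limma adjusted p = 0.00163). ITGB2, the β2 integrin chain, averaged 105 ± 7.16 RPKM with shRNA2 and 39.1 ± 1.66 RPKM with shRNA1 (adjusted p = 0.00155). No adaptor passed, and of 23 kinases and ligases PELI1 was the 1 called, lower with shRNA2. Its call was lost with no minimum (adjusted p = 0.0565), by limma-voom (0.0715) and with depth as reads in listed genes (0.0962). Among inhibitors LY86 and TNFAIP3 were lower and TOLLIP higher with shRNA2. Among transcription factors IRF7 and FOS were higher and IRF8 lower, and among outputs CCL2 and TNF were higher. IRF7, the factor of type I interferon induction, averaged 6.77 ± 1.52 RPKM with shRNA2 and 2.39 ± 0.572 RPKM with shRNA1 (adjusted p = 0.00567, and 0.0617 without shRNA1 A). Leaving out 1 library ended the call of 11 of the 17 genes called between the hairpins, members included, and CCL2, CTSB, ITGB2, LY86, SLC15A3 and TNF kept theirs in each of the 6 fits. Genes of this paragraph beyond CD36, GRN, TNFAIP3, FOS, CCL2 and TNF were named after their values were seen.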

How the data were processed

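Total RNA of 6 libraries of OCI-AML2 (2 each of shRNA2, shRNA1 and control) was sequenced from directional libraries, per the labels' protocols. Per the submitters' processing notes, build hg19, TopHat2 2.0.11, Trim Galore 0.4.0, HTSeq 0.6.1p2, DESeq 1.18.0 and edgeR 3.8.6 were used, with no role stated. For each hairpin the authors deposited a table of RPKM per library, per the file headers. Beside the RPKM, the authors give a log2 fold change, the log2 of average CPM, a score (likelihood ratio), and a p-value before and after adjustment. The gene filter and strand setting are not given in the sources used, so antisense reads cannot be told apart. The control columns, named GFP, were taken as the scramble libraries by table title, and 0 columns stayed unmatched. After 2 repeated rows were dropped, 13002 genes remained. RPKM steps gave whole reads for 100% of genes (within 0.05 reads), and these give the depth.

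Each comparison with the control used the 4 libraries of its table: values were log2(RPKM + 0.5), genes had to average 1 RPKM or more, and limma 3.58.1 in R 4.3.3 fitted a variance trend, two-sided, with p-values adjusted over all genes tested by Benjamini-Hochberg, at a threshold of 0.05. The hairpins were compared in 1 fit of all 6 libraries. The fit was also run on simulated libraries with the same spread setting for all genes and no deviation shared by letter. The real libraries differ from that, so no result here rests on it. Genes named are all 10 members, TAZ and, per pathway list, up to 4 genes with the smallest larger p of both hairpins, and for the 3 members of widest range the 3 genes of highest r, 1 of which is not reported here. Members, lists and the first alternatives were chosen with earlier results of these data known. Alternatives were other pseudocounts, minimums, scalings, limma-voom on recovered reads, a replicate block and each library left out. limma-voom with no minimum and depth as reads in listed genes were chosen after seeing the data. CXorf21 was matched by gene ID. Promoters came from RefSeq, and transcript stretches from GENCODE 29, on a newer build than hg19, so no gene coordinates are given.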

Additional observations from a re-analysis of the deposited data

Results flagged for a closer look

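For 3 members the test of the difference between the hairpins passed in the fit of all 6 libraries. The log2 fold change of shRNA2 over shRNA1 was 2.12 for CD14, 0.89 for TLR1 and -1.02 for TLR9. Among the other genes of the pathway it was 2.56 for CCL2, 1.43 for CTSB, 1.43 for SLC15A3, 1.42 for ITGB2, 1.33 for IRF7, 1.14 for TNF, 1.01 for CD36, 0.93 for GRN, 0.61 for FOS and 0.51 for TOLLIP. It was -1.26 for LY86, -0.90 for TNFAIP3, -0.89 for IRF8 and -0.58 for PELI1. The 2 hairpins also differed in the TAZ level they left, and neither this nor any other cause of the differences was tested.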

How the results depend on the processing

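Of 314 comparisons of a member with its value under another setting, 296 kept direction and call, 3 gained a call, 11 lost one and 4 changed sign. Of 1204 such comparisons of other named genes, 1104 kept both, 27 gained and 73 lost a call. The changes of sign were among uncalled values: TLR1 with shRNA1 (-0.01 without shRNA1 B, and up to 0.37 without other libraries), CD14 with shRNA1 (-0.04 without shRNA1 A and -0.19 without control B, and up to 0.58) and TLR4 between the hairpins (-0.09 without shRNA1 A, and up to 0.38). Members called with shRNA2 numbered 5 with any library left out and 2 at a minimum of 5 RPKM, where 3 were tested. Members called with shRNA1 numbered 2 to 5 with a library left out and 2 at that minimum, where 2 were tested. Between the hairpins they numbered 0 to 3 with a library left out and 0 at that minimum, where 2 were tested. Genes called with shRNA2 numbered 1676, and 2584 with all 6 libraries in the fit. With each library left out they numbered 864 to 1934 with shRNA2, 500 to 4447 with shRNA1 (1971 with all) and 162 to 1628 between the hairpins (1160 with all), and a lone library was assumed to vary like the others. Libraries A and B deviated alike across genes (r = 0.42 between shRNA2 and control, 0.258 between shRNA1 and control, 0.367 between the hairpins), but the labels do not say what the letter marks, and with 2 letters this is a hint from the data and not a pairing by design. A replicate block on that letter called 4170 genes with shRNA2, 3780 with shRNA1 and 2396 between the hairpins, and among members it added UNC93B1 with shRNA2 (adjusted p = 0.0208). Among the other named genes the replicate block added CXCL8 (0.000358, lower), SYK (0.0114), CXorf21 (0.0139), RELA (0.0144) and TAB2 (0.0159) with shRNA2, and CCL2 (0.00073, lower), TAB2 (0.0177), IRAK4 (0.0189) and FOS (0.0274) with shRNA1, and it ended no call. LY96 and TLR7 rested on 3 to 21 reads a library, too few to show a change. The causes of these changes were not tested.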
